A study of Homo sapiens with 36 samples.

Results

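The genes described here are 50 genes of mitosis and the spindle, chosen by symbol from a list and ordered by role. They are 12 kinesins, 7 kinetochore and centromere genes, 8 genes of the spindle checkpoint and of anaphase, 9 genes of mitotic kinases, cyclins and phosphatases, the 4 genes of the chromosomal passenger complex, 7 genes of spindle assembly and cytokinesis, and 3 genes of chromosome structure and transcription. All 50 were found among the 58243 genes of the deposited count table, and all 50 passed the filter on low counts in each of the 3 cell lines. PANC-1, MIA PaCa-2 and BxPC-3 are established lines of human pancreatic ductal adenocarcinoma. Each line was given the synthetic liver X receptor (LXR) agonist GW3965, a compound coded 1E5, a compound coded 3A4, or the vehicle DMSO, with 3 RNA-seq libraries per group and 36 libraries in all. The labels name 1E5 and 3A4 as inverse agonists of LXR, a nuclear receptor for oxysterols, and give 10 µM and 48 h for the treatment. PANC-1 and MIA PaCa-2 cells were kept in DMEM and BxPC-3 cells in RPMI 1640, each with 10% fetal bovine serum, 5% CO2 and 37 °C. Line and medium therefore cannot be told apart where BxPC-3 is set against the other lines.

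As background, a dividing cell builds a bipolar spindle of microtubules on which kinesin motors slide, cross-link and shorten the filaments, while kinetochores tie the chromosomes to the microtubule ends. The spindle checkpoint holds the anaphase-promoting complex back until every chromosome is attached, and Aurora, Polo and cyclin-dependent kinases time each step. Most of these genes are transcribed late in the cell cycle, through promoter elements named CHR (cell cycle genes homology region) and CCAAT box, at which the MuvB complex with B-MYB or FOXM1 and the factor NF-Y are known to act. Their summed RNA is widely used as a readout of proliferation. In bulk RNA, a smaller share of cells in mitosis and less of these RNAs per cell cannot be told apart.

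Levels are given as CPM, counts per 1000000 of the library total after TMM scaling within the line. Log2 fold changes are given ± SE from edgeR's quasi-likelihood test over all genes of the line, and adjusted p is the Benjamini-Hochberg value over those genes, with a threshold of 0.05 for a call. The sample titles call the 3 libraries of a group biological replicates and do not say whether these were separate cultures, so each p-value measures only the spread between these libraries. Library totals ran from 19605935 to 25888304 counts in BxPC-3, from 14960970 to 26026684 in PANC-1 and from 2701393 to 25503827 in MIA PaCa-2, where the 1E5 libraries held 23675670 to 25503827 counts and the DMSO libraries 3609582 to 10996848. The 13 protein genes of mitochondrial DNA took 0.997% ± 0.437 of the counts with 1E5 in MIA PaCa-2, against 5.92% ± 0.266 with DMSO (SD, n = 3 each). In PANC-1 the shares were 2.54% ± 0.972 with 1E5 and 6.04% ± 0.632 with DMSO, and in BxPC-3 they were 7.04% ± 1.24 with 1E5 and 7.30% ± 0.459 with DMSO. Of 6 epithelial markers, KRT8, KRT18 and KRT19 had counts in every library of each line, with KRT19 as low as 36.1 CPM in MIA PaCa-2. In MIA PaCa-2, KRT7 was at 0 in 3 and EPCAM in 11 of 12 libraries, and CDH1 stayed under 0.768 CPM. In the summed level of the mitotic genes, PANC-1 replicate 2 stood apart from replicates 1 and 3 in the 1E5, GW3965 and DMSO groups. That level is itself the outcome described here. By chi-squared per degree of freedom between libraries, replicates 1 and 3 were the closest pair with 1E5 (41.08) and DMSO (27.1). With GW3965 the closest pair was replicates 2 and 3 (28.65, against 42.75 and 35.18). The counts of calls within PANC-1 are also given without replicate 2.

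The promoters of 44 of the 50 genes could be matched to RefSeq (GRCh38.p14), as 57 windows of 250 bases before to 50 bases after a transcript start. The CHR letters TTTGAA, on either strand, were in 36 of these windows (63.2%), against 15.2% of all 35116 RefSeq windows of the same length. The related letters TTTAAA were in 28.1% of the windows of these genes and 12.2% of all windows, and the CCAAT letters in 73.7% and 34.6%. A CHR of either spelling together with CCAAT stood in 57.9% of the windows of these genes, against 9.3% of all windows, and in a window of 30 of the 44 genes. The E2F letters TTTCCCGC or TTTGGCGC were in 5.3% of the windows of these genes and 2.3% of all windows. TTTAAA reads the same on both strands, no motif searched lies whole inside another, and a match describes the letters only. The promoter windows printed here belong to the genes with the largest (KIF20A, ESPL1) and the smallest (CDC25B, HMMR) median size of response to 1E5 over the 3 lines. All 4 lie on the plus strand, at chr5:138178862-138179161, chr12:53268049-53268348, chr20:3786701-3787000 and chr5:163460382-163460681, and capitals mark the CHR and CCAAT letters on either strand.
KIF20A: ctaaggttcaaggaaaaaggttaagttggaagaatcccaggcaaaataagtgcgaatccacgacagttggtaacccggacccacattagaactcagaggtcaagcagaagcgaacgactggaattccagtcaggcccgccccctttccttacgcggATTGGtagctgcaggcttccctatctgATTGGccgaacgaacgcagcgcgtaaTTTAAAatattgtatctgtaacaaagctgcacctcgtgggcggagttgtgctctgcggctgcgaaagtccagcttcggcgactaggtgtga
ESPL1: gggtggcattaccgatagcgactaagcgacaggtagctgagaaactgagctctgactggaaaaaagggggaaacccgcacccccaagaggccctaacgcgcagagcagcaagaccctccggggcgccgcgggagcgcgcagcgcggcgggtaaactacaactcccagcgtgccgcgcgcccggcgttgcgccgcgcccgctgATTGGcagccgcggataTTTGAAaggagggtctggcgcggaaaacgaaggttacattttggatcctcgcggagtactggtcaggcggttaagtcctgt
CDC25B: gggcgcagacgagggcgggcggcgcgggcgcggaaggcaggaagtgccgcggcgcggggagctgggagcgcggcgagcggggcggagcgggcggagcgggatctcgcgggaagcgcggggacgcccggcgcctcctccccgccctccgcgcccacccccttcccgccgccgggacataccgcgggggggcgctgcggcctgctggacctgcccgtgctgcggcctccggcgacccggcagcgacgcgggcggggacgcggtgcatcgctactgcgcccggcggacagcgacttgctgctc
HMMR: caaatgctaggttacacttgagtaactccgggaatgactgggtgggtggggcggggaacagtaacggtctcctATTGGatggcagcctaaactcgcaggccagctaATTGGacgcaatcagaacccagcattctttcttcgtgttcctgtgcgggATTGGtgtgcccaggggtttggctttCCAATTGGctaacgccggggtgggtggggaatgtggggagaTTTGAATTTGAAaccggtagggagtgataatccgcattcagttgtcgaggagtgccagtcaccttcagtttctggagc
The KIF20A window carries TTTAAA downstream of a pair of ATTGG, which is CCAAT on the other strand, and the ESPL1 window TTTGAA downstream of ATTGG. HMMR, with a small response in MIA PaCa-2 and BxPC-3, carries TTTGAA in tandem below several CCAAT boxes. The printed CDC25B window is 1 of 4 for that gene and holds none of the letters searched.

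Under 1E5 the mitotic genes fell together in PANC-1 and MIA PaCa-2, and none was called in BxPC-3. In MIA PaCa-2, 49 of the 50 were called lower and 0 higher, where 23.4% of the 16254 genes tested were lower and 23.6% higher. In PANC-1 49 were again called lower and 0 higher, against a background of 19.3% lower and 19.7% higher among 18544 genes, and 48 of the 49 were shared with MIA PaCa-2. The median log2 fold change of the 50 genes was -2.0 in PANC-1 and -1.79 in MIA PaCa-2, where all genes had medians of 0.017 and 0.050. In BxPC-3, edgeR called 0 of the 50 in either direction, as it called 0.0% lower and 0.0% higher among 18042 genes; 5 of the 50 had an unadjusted p under 0.05, and DESeq2 and limma-voom also called 0. The median there was 0.093. The difference of the 1E5 response among the 3 lines, tested in 1 fit of all libraries, was called for 49 of the 50 genes, where 38.5% of all genes were called. CDC25B was the exception.

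**Figure D1:**
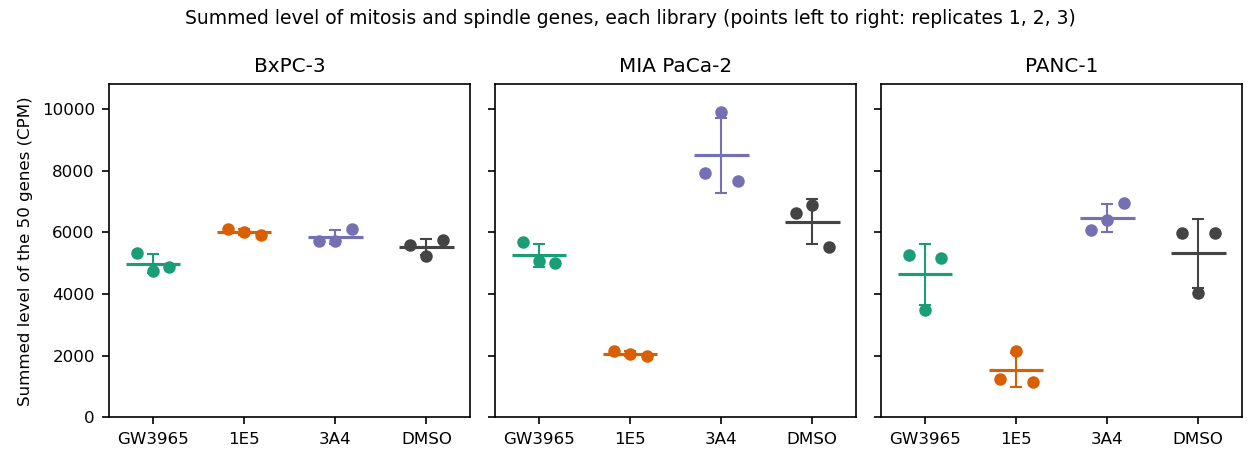
Summed CPM of the 50 mitotic and spindle genes in each library, by line and by treatment (GW3965, 1E5, 3A4, then DMSO), with points for libraries, horizontal bars for group means and error bars for 1 SD. The 1E5 libraries of MIA PaCa-2 and PANC-1 sit below every other library of their line, and 1E5 replicate 2 of PANC-1 stands between the other 1E5 libraries and the DMSO libraries of that line.

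Summed over the 50 genes, the 1E5 libraries of MIA PaCa-2 held 2151, 2042 and 1989 CPM, against 6628, 6899 and 5535 CPM with DMSO. The 1E5 libraries of PANC-1 held 1255, 2159 and 1163 CPM, against 5973, 4032 and 5978 CPM with DMSO. Neither pair of groups overlapped, and in PANC-1 replicate 2 was the highest 1E5 library and the lowest DMSO library. Without replicate 2 in every PANC-1 group, all 50 genes were called lower with 1E5 and the median log2 fold change was -2.56. Leaving it out was chosen after the data were seen and removes the highest 1E5 and the lowest DMSO sum. A deeper fall follows from that choice and is no separate support for the fall. In BxPC-3 the sums averaged 6015 ± 105.5 CPM with 1E5 and 5529 ± 253 CPM with DMSO (SD, n = 3 each). The fall in MIA PaCa-2 and PANC-1 went with the lower share of mitochondrial counts given above, and in MIA PaCa-2 with deeper 1E5 libraries. When the mitochondrial genes were left out of the totals, and likewise when all libraries were thinned to the lowest total, 49 genes were still called lower in each of these lines.

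Some marker genes were also lower with 1E5 in the responding lines. KRT8, KRT18 and KRT19 were called lower in both, and the 6 epithelial markers summed to 539.7 to 607 CPM with 1E5 in MIA PaCa-2, against 1364 to 1688 CPM with DMSO, and to 768 to 952 CPM with 1E5 in PANC-1, against 3260 to 5097 CPM with DMSO. These keratins made up most of the sums. Over all PANC-1 libraries, CDH1 had 18.4 to 123.8 CPM (DMSO mean 47.5), EPCAM 23.4 to 42.7 (28.9) and KRT7 3.77 to 8.01 (5.83). KRT7 reached 8.83 CPM in MIA PaCa-2 (DMSO mean 0.644). The direction of KRT7, EPCAM and CDH1 with 1E5 is not given here. Of 5 fibroblast markers, the collagen genes COL1A2 and COL3A1 were called lower in MIA PaCa-2 and COL1A1 in PANC-1, while DCN was at 0 in every library of both lines. The 5 summed to 9.51 to 27.9 CPM with 1E5 in MIA PaCa-2, against 247 to 257 CPM with DMSO, and to 5.76 to 18.9 CPM with 1E5 in PANC-1, against 54.4 to 180.9 CPM with DMSO. Of 3 immune markers CD14 was called lower in both lines, with PTPRC and CD3E at 0 in every MIA PaCa-2 library. These 3 summed to at most 0.455 CPM with 1E5 in MIA PaCa-2, against 14.2 to 19.1 CPM with DMSO, and to at most 0.444 CPM with 1E5 in PANC-1, against 0.771 to 1.14 CPM with DMSO. Of 3 endothelial markers CDH5 was called lower in MIA PaCa-2, where PECAM1 was at 0 throughout and the 3 summed to at most 0.611 CPM with 1E5, against 21.5 to 25.6 CPM with DMSO. The 3 endothelial markers in PANC-1, and the 4 acinar and endocrine markers in both lines, were at 0 in the 1E5 and DMSO libraries. No marker was called in BxPC-3. The part of these marker genes in the fall of the mitotic genes was not tested.

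**Figure D2:**
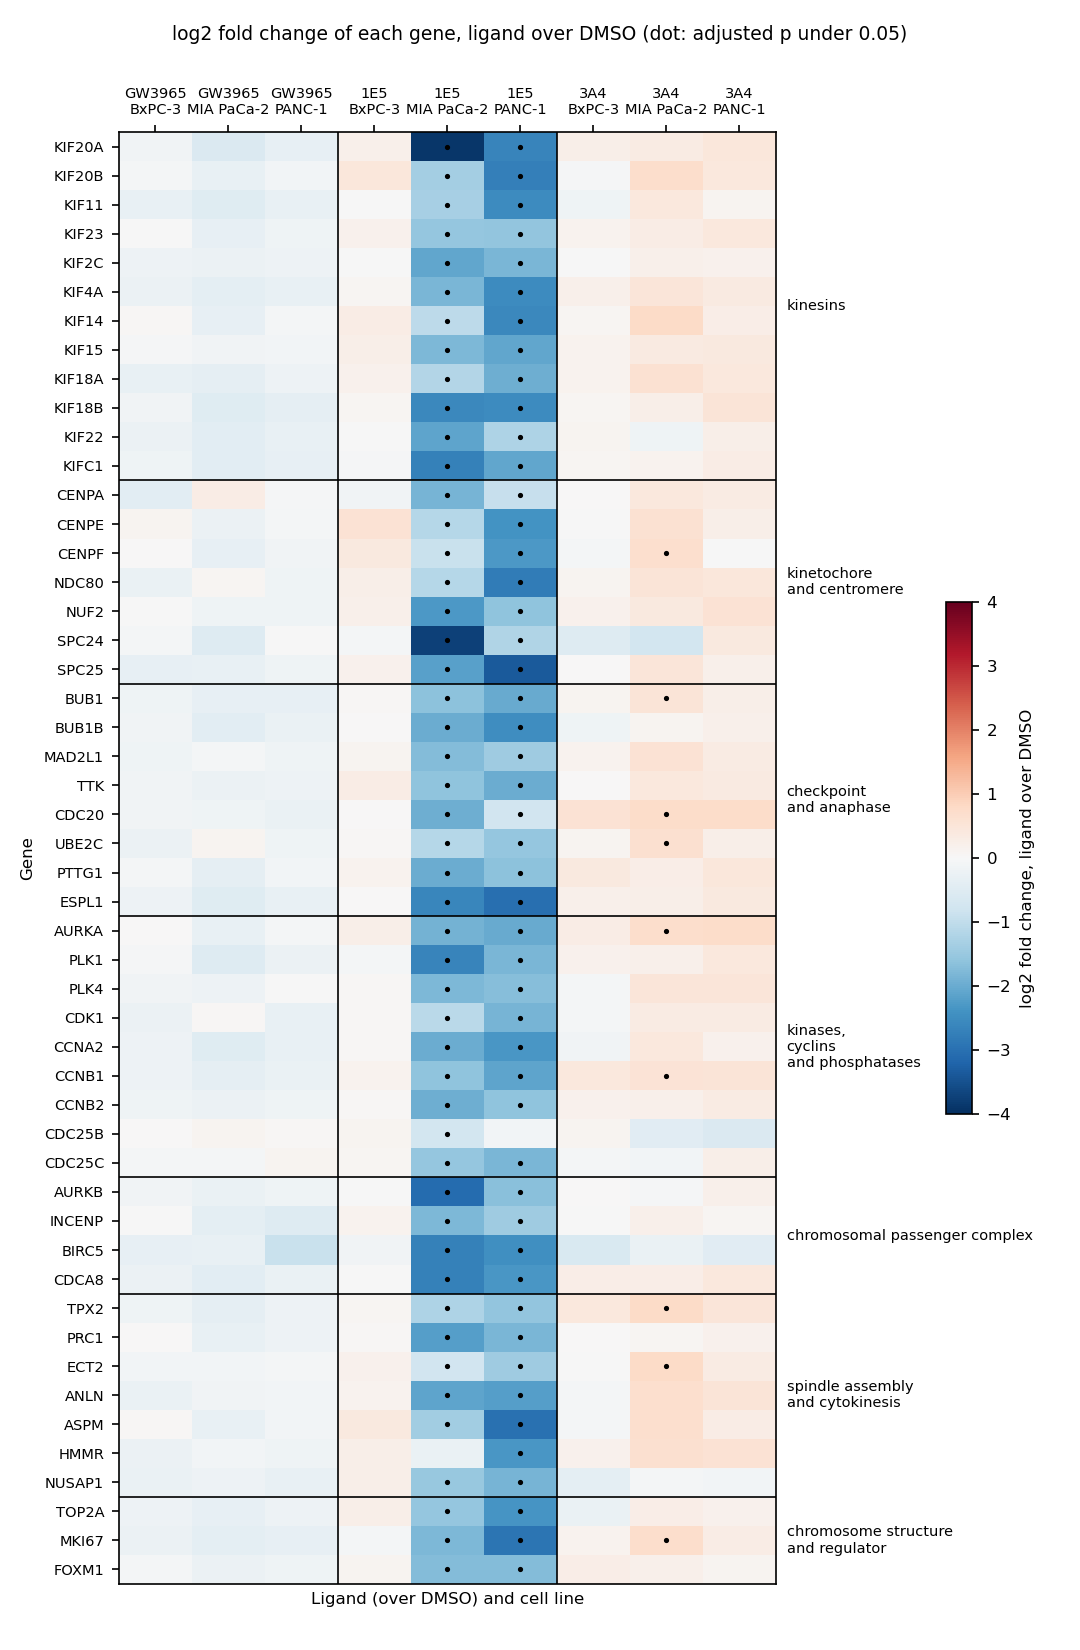
Log2 fold change of each of the 50 genes (rows, grouped by role) in each comparison with DMSO within a line (columns), as GW3965, 1E5 or 3A4 over DMSO, on a colour scale from -4 to 4, with a dot where the adjusted p was under 0.05. The 1E5 columns of MIA PaCa-2 and PANC-1 carry 49 dots each, all for lower levels, and the 3A4 column of MIA PaCa-2 carries 9, all for higher levels.

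The 12 kinesins were all called lower with 1E5 in both responding lines, with a median log2 fold change of -1.82 in MIA PaCa-2 (range -3.88 to -1.06) and -2.30 in PANC-1 (range -2.73 to -1.24). KIF20A (ENSG00000112984, chromosome 5, 138178719 to 138187715, plus strand, GRCh38 and GENCODE 29), a kinesin of the central spindle that cytokinesis needs, fell furthest of the 50 genes in MIA PaCa-2. It had 14.01, 10.2 and 10.7 CPM in the 1E5 libraries of MIA PaCa-2, against 197, 181 and 134 CPM with DMSO. In PANC-1 it had 4.37, 23.8 and 5.84 CPM with 1E5 and 84.5, 45.8 and 78.8 CPM with DMSO. The groups did not overlap in either line, and the PANC-1 1E5 library of replicate 2 stood about midway between the others and the lowest DMSO library. The log2 fold changes were -3.88 ± 0.19 in MIA PaCa-2, a 14.7-fold lower level (adjusted p = 1.15e-07), and -2.63 ± 0.53 in PANC-1 (adjusted p = 0.00246). In BxPC-3 KIF20A had 98.1, 115 and 89.3 CPM with 1E5 and 91.2, 87.6 and 86.2 CPM with DMSO, a difference of 0.19 ± 0.14 that was not called. Exons of KIF20A overlap those of BRD8 and CDC23 on the opposite strand over 132 and 68 bases. With 1E5, BRD8 had a log2 fold change of -0.96 ± 0.12 and CDC23 of -0.34 ± 0.13 in MIA PaCa-2. In PANC-1 BRD8 had -0.119 ± 0.119 and CDC23 0.349 ± 0.125. The strand setting is not given, so the KIF20A counts are uncertain to that extent.

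KIF11 (ENSG00000138160, chromosome 10, 92593286 to 92655395, plus strand), the motor that pushes the spindle poles apart, had 47.1, 48.9 and 44.5 CPM with 1E5 in MIA PaCa-2, against 112, 137 and 101 CPM with DMSO. Its PANC-1 libraries held 20.4, 24.6 and 21.3 CPM with 1E5 and 133, 107 and 144 CPM with DMSO. All 1E5 libraries lay below all DMSO libraries in both lines, and the log2 fold changes were -1.32 ± 0.21 (adjusted p = 0.000311) and -2.53 ± 0.15 (adjusted p = 7.48e-07). In BxPC-3 KIF11 had 101, 94.6 and 101 CPM with 1E5 and 99.8, 96.4 and 102 CPM with DMSO, and the difference was -0.0065. KIF18B, which helps depolymerise astral microtubules, had 10.03, 11.5 and 13.9 CPM with 1E5 in MIA PaCa-2, against 82.7, 79.4 and 47.0 CPM with DMSO, and its log2 fold changes were -2.57 ± 0.21 there and -2.52 ± 0.29 in PANC-1. KIFC1, a minus-end motor that clusters centrosomes, changed by -2.71 in MIA PaCa-2 and by -2.08 in PANC-1. KIF2C, a depolymerase at the centromere, changed by -2.07 and -1.83, and KIF23, the centralspindlin kinesin, by -1.54 and -1.57. The remaining kinesins are KIF4A (a chromosome-arm motor, -1.84 and -2.52), KIF15 (a partner of KIF11 in spindle bipolarity, -1.80 and -2.09), KIF22 (a chromosome-bound motor, -2.12 and -1.24) and KIF18A (which damps chromosome movement at the plate, -1.17 and -1.95). KIF14, which acts in cytokinesis, changed by -1.06 in MIA PaCa-2 and by -2.58 in PANC-1, and KIF20B, a relative of KIF20A, by -1.37 and -2.73. In BxPC-3 the 12 kinesins ran from -0.057 to 0.45 and none was called.

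All 7 kinetochore and centromere genes were called lower with 1E5 in both lines, with medians of -2.31 in PANC-1 and -1.85 in MIA PaCa-2. CENPA (ENSG00000115163, chromosome 2, 26764289 to 26801067, plus strand), the histone variant that marks the centromere, had 6.23, 5.31 and 6.26 CPM with 1E5 in MIA PaCa-2, against 15.1, 17.9 and 32.5 CPM with DMSO. In PANC-1 it had 7.27, 13.7 and 7.55 CPM with 1E5 and 21.7, 13.2 and 19.4 CPM with DMSO, and there the groups overlapped. The log2 fold changes were -1.85 ± 0.39 (adjusted p = 0.00204) and -0.93 ± 0.30 (adjusted p = 0.029), and the PANC-1 call was lost when single libraries were left out. CENPA shares 138 exon bases on the same strand with SLC35F6, whose own log2 fold changes were 1.84 ± 0.69 in PANC-1 and 1.13 ± 0.25 in MIA PaCa-2, so that reads at the shared bases cannot be assigned to either gene. CENPE (ENSG00000138778, chromosome 4, 103105806 to 103198409, minus strand), the kinetochore kinesin that carries chromosomes to the plate, had 26.3, 22.9 and 24.4 CPM with 1E5 in MIA PaCa-2, against 39.6, 67.8 and 53.7 CPM with DMSO. It had 10.1, 19.6 and 12.8 CPM with 1E5 in PANC-1, against 52.4, 72.3 and 97.5 CPM with DMSO, and the groups of neither line overlapped. The log2 fold changes of CENPE were -1.14 ± 0.27 in MIA PaCa-2 (adjusted p = 0.00369) and -2.39 ± 0.32 in PANC-1 (adjusted p = 0.000163). CENPF, a large protein of the outer kinetochore, changed by -0.88 ± 0.21 and -2.31 ± 0.24.

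NDC80, NUF2, SPC24 and SPC25 together form the NDC80 complex, the rod that joins the kinetochore to the microtubule. NDC80 (ENSG00000080986, chromosome 18, 2571511 to 2616635, plus strand) had 34.5, 29.1 and 41.3 CPM with 1E5 in MIA PaCa-2, against 73.4, 93.4 and 64.99 CPM with DMSO. Its PANC-1 libraries had 7.35, 9.06 and 5.53 CPM with 1E5 and 58.5, 39.3 and 55.3 CPM with DMSO. Its 1E5 and DMSO groups did not overlap, and the log2 fold changes were -1.15 ± 0.20 (adjusted p = 0.000424) and -2.80 ± 0.24 (adjusted p = 7.49e-06). SPC25 fell furthest of the 50 genes in PANC-1, with 1.55, 2.04 and 1.78 CPM with 1E5, against 21.4, 14.6 and 19.2 CPM with DMSO. In MIA PaCa-2 SPC25 had 7.52, 5.61 and 5.19 CPM with 1E5 and 27.2, 25.5 and 30.2 CPM with DMSO. Again no 1E5 library reached a DMSO library, with log2 fold changes of -3.36 ± 0.23 in PANC-1 (adjusted p = 2.16e-06) and -2.17 ± 0.21 in MIA PaCa-2 (adjusted p = 7.85e-06). For SPC25 the line-to-line difference of the 1E5 response had the smallest p of the 50 genes (adjusted p = 2.23e-09). SPC24 had 2.43, 3.18 and 1.22 CPM with 1E5 in MIA PaCa-2, against 36.1, 32.3 and 23.2 CPM with DMSO, and 3.34, 13.6 and 4.64 CPM with 1E5 in PANC-1, against 13.9, 15.01 and 20.3 CPM with DMSO. Its log2 fold changes were -3.74 ± 0.32 (adjusted p = 2.77e-06) and -1.19 ± 0.43 (adjusted p = 0.0449), and those of NUF2 were -2.31 ± 0.28 and -1.60 ± 0.29. The strand setting of the counting is not given in the sources used here, and the SPC24 counts are reported as uncertain. In BxPC-3 the 4 genes of the complex had log2 differences of 0.24 (NDC80), 0.20 (NUF2), -0.080 (SPC24) and 0.16 (SPC25), and none was called.

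Of the 8 genes of the checkpoint and of anaphase, all were called lower with 1E5 in MIA PaCa-2 (median -1.83) and in PANC-1 (median -1.80). BUB1B (ENSG00000156970, chromosome 15, 40161023 to 40221136, plus strand), which encodes the checkpoint protein BubR1, had 22.2, 23.96 and 21.4 CPM with 1E5 in MIA PaCa-2, against 92.4, 94.2 and 83.6 CPM with DMSO. In PANC-1 it had 12.6, 16.6 and 11.7 CPM with 1E5 and 92.2, 53.7 and 80.2 CPM with DMSO. These groups did not overlap, and the log2 fold changes were -2.0 ± 0.14 (adjusted p = 7.12e-07) and -2.47 ± 0.23 (adjusted p = 1.47e-05). In BxPC-3 BUB1B had 95.4, 96.99 and 83.5 CPM with 1E5, against 103, 73.3 and 99.7 CPM with DMSO, the smallest difference of the 50 genes there (0.0013, 95% interval -0.30 to 0.30). ESPL1, the separase that cuts cohesin at anaphase, had 7.37, 9.40 and 9.28 CPM with 1E5 in MIA PaCa-2, against 56.5, 57.1 and 44.7 CPM with DMSO. Its PANC-1 values were 5.52, 7.77 and 6.58 CPM with 1E5 and 62.9, 38.8 and 60.2 CPM with DMSO, and its BxPC-3 values 55.9, 39.2 and 40.6 CPM with 1E5 and 49.01, 38.4 and 47.9 CPM with DMSO. In MIA PaCa-2 and PANC-1 every 1E5 library was below every DMSO library, while in BxPC-3 the groups overlapped. The changes were -3.03 ± 0.22 in PANC-1 (adjusted p = 2.7e-06) and -2.61 ± 0.17 in MIA PaCa-2 (adjusted p = 5.71e-07).

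CDC20 (ENSG00000117399, chromosome 1, 43358955 to 43363203, plus strand), the activator of the anaphase-promoting complex that the checkpoint inhibits, was among the most abundant of these RNAs. It had 77.6, 61.6 and 60.7 CPM with 1E5 in MIA PaCa-2, against 276, 277 and 218 CPM with DMSO. In PANC-1 it had 72.7, 89.1 and 58.1 CPM with 1E5 and 162, 78.6 and 134 CPM with DMSO and the groups overlapped, with DMSO replicate 2 low and 1E5 replicate 2 high. The log2 fold changes were -1.95 ± 0.16 (adjusted p = 2.33e-06) and -0.77 ± 0.27 (adjusted p = 0.0385), and the PANC-1 call was lost when some single libraries were left out. BUB1, a checkpoint kinase at the kinetochore, changed by -1.64 in MIA PaCa-2 and by -2.02 in PANC-1. TTK, the kinase MPS1 that starts the checkpoint signal, changed by -1.61 and -1.98, and MAD2L1, the checkpoint protein MAD2 that binds CDC20, by -1.72 and -1.43. UBE2C, a ubiquitin-conjugating enzyme of the anaphase-promoting complex, changed by -1.14 and -1.54, and PTTG1, the securin that holds separase back, by -1.99 and -1.63. All 5 were called in both lines. Counts of a processed copy, CDC20P1, came to 2.44% of those of CDC20 over all libraries, and those of MAD2L1P1 to 1.13% of MAD2L1.

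Among the 9 genes of kinases, cyclins and phosphatases, all 9 were called lower with 1E5 in MIA PaCa-2 (median -1.79) and 8 in PANC-1 (median -1.84). PLK1 (ENSG00000166851, chromosome 16, 23677656 to 23690367, plus strand), the Polo kinase of mitotic entry and spindle formation, had 18.8, 18.8 and 16.95 CPM with 1E5 in MIA PaCa-2, against 109, 119 and 110.2 CPM with DMSO. In PANC-1 it had 15.2, 20.3 and 11.1 CPM with 1E5 and 66.9, 40.4 and 56.8 CPM with DMSO. No libraries of the 2 groups overlapped, and the log2 fold changes were -2.63 ± 0.17 (adjusted p = 5.86e-07) and -1.82 ± 0.27 (adjusted p = 0.000385). AURKA (ENSG00000087586, chromosome 20, 56369389 to 56392337, minus strand), the Aurora kinase of the spindle poles, had 30.6, 40.5 and 37.4 CPM with 1E5 in MIA PaCa-2, against 142, 144 and 119.8 CPM with DMSO, and 22.8, 28.4 and 22.7 CPM with 1E5 in PANC-1, against 90.95, 77.6 and 131 CPM with DMSO. The groups were separate in both lines, with changes of -1.90 ± 0.16 and -2.02 ± 0.21 (adjusted p = 2.87e-06 and 3.29e-05). CDK1 (ENSG00000170312, chromosome 10, 60778331 to 60794852, plus strand), the cyclin-dependent kinase that drives mitosis, had 34.9, 30.6 and 30.3 CPM with 1E5 in MIA PaCa-2, against 53.4, 71.2 and 78.3 CPM with DMSO, and 14.3, 39.8 and 17.5 CPM with 1E5 in PANC-1, against 104, 56.3 and 101 CPM with DMSO. CCNB1 (ENSG00000134057, chromosome 5, 69167010 to 69178245, plus strand), its partner cyclin B1, had 126, 105 and 97.5 CPM with 1E5 in MIA PaCa-2, against 385, 337 and 279 CPM with DMSO, and 37.1, 52.9 and 27.7 CPM with 1E5 in PANC-1, against 214, 117 and 176 CPM with DMSO. For both genes the 1E5 libraries of each line lay below the DMSO libraries. CDK1 changed by -1.08 ± 0.23 (adjusted p = 0.00213) and -1.87 ± 0.40 (adjusted p = 0.00338), and CCNB1 by -1.61 ± 0.16 (adjusted p = 7.68e-06) and -2.11 ± 0.28 (adjusted p = 0.000148).

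CCNA2, the cyclin of the period from DNA synthesis to early mitosis, changed by -1.98 in MIA PaCa-2 and by -2.34 in PANC-1, and CCNB2, the Golgi-linked cyclin B, by -1.94 and -1.62. PLK4, the kinase of centriole duplication, changed by -1.79 and -1.71, and CDC25C, a phosphatase that activates CDK1, by -1.56 and -1.84. Exons of CDC25C overlap those of FAM53C on the opposite strand over 293 bases, and FAM53C, with 532% of the CDC25C counts, had log2 fold changes of 0.79 ± 0.16 in MIA PaCa-2 and of 0.0098 ± 0.19 in PANC-1, so the CDC25C counts are uncertain. Smaller overlaps of this kind join KIF4A to PDZD11, KIF18A to METTL15 and CCNA2 to EXOSC9, whose counts came to 63.0%, 54.1% and 39.2% of those of the mitotic genes. CDC25B (ENSG00000101224, chromosome 20, 3786772 to 3806121, plus strand), the phosphatase that starts CDK1 activation at mitotic entry, was the exception in PANC-1. It had 93.9, 90.7 and 154 CPM with 1E5 in MIA PaCa-2, against 228, 192 and 138 CPM with DMSO, and 232, 411 and 205 CPM with 1E5 in PANC-1, against 277, 297 and 332 CPM with DMSO. The groups overlapped in both lines, and the changes were -0.72 ± 0.28 (adjusted p = 0.0477) in MIA PaCa-2, a call that single left-out libraries ended, and -0.096 ± 0.22 (adjusted p = 0.767, 95% interval -0.58 to 0.39) in PANC-1. The PANC-1 1E5 library of replicate 2 was the highest, and without replicate 2 in every PANC-1 group CDC25B was called lower with 1E5. Of its 4 promoter windows, 2 held CCAAT and 1 held TTTAAA.

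The 4 genes of the chromosomal passenger complex were called lower with 1E5 in both lines, with medians of -2.0 in PANC-1 and -2.70 in MIA PaCa-2. AURKB, the Aurora kinase of the complex, had 8.59, 9.02 and 10.5 CPM with 1E5 in MIA PaCa-2, against 83.1, 76.3 and 80.1 CPM with DMSO, and 3.89, 12.03 and 4.26 CPM with 1E5 in PANC-1, against 25.4, 16.2 and 22.4 CPM with DMSO. INCENP (ENSG00000149503, chromosome 11, 62123973 to 62153163, plus strand), the scaffold of the complex, had 16.1, 14.8 and 17.1 CPM with 1E5 in MIA PaCa-2, against 62.1, 59.5 and 43.8 CPM with DMSO, and 15.9, 27.4 and 14.4 CPM with 1E5 in PANC-1, against 58.7, 39.7 and 55.7 CPM with DMSO. Every 1E5 library of both genes was below the DMSO libraries of its line. AURKB changed by -3.09 ± 0.15 in MIA PaCa-2 (adjusted p = 1.36e-07) and -1.67 ± 0.41 in PANC-1 (adjusted p = 0.00717), and INCENP by -1.79 ± 0.17 (adjusted p = 7.52e-06) and -1.42 ± 0.24 (adjusted p = 0.00085). BIRC5, which encodes survivin, changed by -2.70 and -2.45. CDCA8, which encodes borealin, changed by -2.69 and -2.34. In BxPC-3, CDCA8 had 102, 74.4 and 75.3 CPM with 1E5 and 97.02, 73.1 and 81.7 CPM with DMSO, overlapping groups with a difference of -0.0023.

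Of the 7 genes of spindle assembly and cytokinesis, 6 were called lower with 1E5 in MIA PaCa-2 (median -1.40) and 7 in PANC-1 (median -1.87). HMMR (ENSG00000072571, chromosome 5, 163460203 to 163491945, plus strand), the hyaluronan receptor RHAMM that also binds spindle microtubules, was the member not called in MIA PaCa-2. It had 141, 94.01 and 113 CPM with 1E5 there, against 133, 136 and 150.3 CPM with DMSO, and 15.5, 9.68 and 13.5 CPM with 1E5 in PANC-1, against 73.6, 43.7 and 75.4 CPM with DMSO. The groups overlapped in MIA PaCa-2 and were apart in PANC-1, with changes of -0.27 ± 0.21 (adjusted p = 0.305, 95% interval -0.72 to 0.18) and -2.32 ± 0.25 (adjusted p = 4.07e-05). ASPM, a spindle pole protein, had 6.99, 15.3 and 9.60 CPM with 1E5 in PANC-1, against 69.3, 75.5 and 107 CPM with DMSO, a change of -2.98 ± 0.30 (adjusted p = 2.37e-05), and changed by -1.40 ± 0.24 in MIA PaCa-2. ECT2, the exchange factor that activates RhoA for the cleavage furrow, had 86.98, 72.4 and 81.5 CPM with 1E5 in MIA PaCa-2, against 143, 152 and 116 CPM with DMSO (-0.77 ± 0.19, adjusted p = 0.00498), and changed by -1.41 ± 0.19 in PANC-1. These ECT2 and ASPM groups did not overlap. TPX2, which activates AURKA on the spindle, changed by -1.24 in MIA PaCa-2 and by -1.59 in PANC-1, and PRC1, the cross-linker of the central spindle, by -2.20 and -1.84. ANLN, the scaffold anillin of the contractile ring, changed by -2.10 and -2.19, and NUSAP1, which bundles microtubules near chromosomes, by -1.53 and -1.87. PRC1 shares 57.57% of its exon bases, and NUSAP1 62.16%, with another protein-coding gene on the same strand. Neither of those other genes is in the count table, so no counts were listed under them. How reads at the shared bases were counted is not given, and the counts of PRC1 and NUSAP1 are uncertain to that extent.

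The 3 genes of chromosome structure and transcription were all called lower with 1E5 in MIA PaCa-2 and PANC-1. TOP2A (ENSG00000131747, chromosome 17, 40388516 to 40417950, minus strand), the topoisomerase that untangles sister chromatids, had 191, 189.9 and 168 CPM with 1E5 in MIA PaCa-2, against 549.5, 618 and 452 CPM with DMSO, and 66.1, 172 and 66.8 CPM with 1E5 in PANC-1, against 587, 371 and 598 CPM with DMSO. MKI67 (ENSG00000148773, chromosome 10, 128096659 to 128126385, minus strand), the Ki-67 protein that coats mitotic chromosomes, had 85.5, 123 and 91.95 CPM with 1E5 in MIA PaCa-2, against 343, 433 and 261 CPM with DMSO, and 38.6, 76.3 and 36.8 CPM with 1E5 in PANC-1, against 481, 257 and 419 CPM with DMSO. FOXM1 (ENSG00000111206, chromosome 12, 2857681 to 2877155, minus strand), a transcription factor of late cell cycle genes, had 40.2, 50.5 and 30.4 CPM with 1E5 in MIA PaCa-2, against 140.4, 159.8 and 98.9 CPM with DMSO, and 17.3, 20.1 and 15.98 CPM with 1E5 in PANC-1, against 73.6, 36.2 and 68.6 CPM with DMSO. All 3 genes had every 1E5 library below every DMSO library in both lines. TOP2A changed by -1.56 ± 0.18 (adjusted p = 3.01e-05) and -2.35 ± 0.37 (adjusted p = 0.00053). MKI67 changed by -1.79 ± 0.22 (adjusted p = 3.97e-05) and -2.93 ± 0.34 (adjusted p = 6.65e-05), and FOXM1 by -1.72 ± 0.28 (adjusted p = 0.000277) and -1.74 ± 0.32 (adjusted p = 0.00132). The kinesin, kinetochore, checkpoint and kinase groups thus had medians between -1.85 and -1.79 in MIA PaCa-2 and between -2.31 and -1.80 in PANC-1, and no test of a difference between roles was made.

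In BxPC-3 the largest 1E5 differences among the 50 genes were upward and were not called. CENPE had 74.3, 104 and 91.2 CPM with 1E5 in BxPC-3, against 45.1, 64.3 and 71.7 CPM with DMSO (0.57 ± 0.20). KIF20B had 67.9, 95.1 and 88.2 CPM with 1E5, against 47.4, 65.2 and 71.6 CPM with DMSO (0.45 ± 0.19), and ASPM 146, 198 and 163 CPM with 1E5, against 97.8, 149 and 141 CPM with DMSO (0.39 ± 0.18). All 3 had an adjusted p of 1.0 by edgeR. Among genes of the other roles, PLK1 had 79.1, 59.8 and 72.3 CPM with 1E5 in BxPC-3 and 84.9, 67.5 and 69.4 CPM with DMSO, with a 95% interval of the log2 fold change of -0.34 to 0.20. MKI67 had 395, 489 and 597 CPM with 1E5 and 548, 408 and 596 CPM with DMSO (interval -0.51 to 0.38), and TOP2A 572, 625 and 568 CPM with 1E5 and 467, 495 and 552 CPM with DMSO (interval 0.0032 to 0.44). The lower ends of these 3 intervals lie above the log2 fold changes of the same genes in MIA PaCa-2 and PANC-1. The TOP2A libraries with 1E5 were all above those with DMSO, and the groups of PLK1 and MKI67 overlapped.

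Nor were other genes of these roles called in BxPC-3. NDC80 had 64.2, 58.5 and 67.1 CPM with 1E5 in BxPC-3, against 54.8, 47.2 and 58.5 CPM with DMSO, and CENPA had 14.2, 15.02 and 13.2 CPM with 1E5, against 13.5, 22.2 and 11.5 CPM with DMSO (interval -0.61 to 0.30). CDC20 had 233, 166 and 157 CPM with 1E5, against 200.2, 171 and 175 CPM with DMSO (interval -0.34 to 0.40). For NDC80, CENPA and CDC20 the groups overlapped. CDK1 had 149.9, 144 and 159 CPM with 1E5, against 149.5, 147 and 141 CPM with DMSO, and its partner CCNB1 198, 179 and 161 CPM with 1E5, against 179, 150.1 and 159 CPM with DMSO. AURKA had 129.7, 118 and 116 CPM with 1E5, against 127, 66.4 and 115 CPM with DMSO, where replicate 2 of the DMSO libraries was low. INCENP had 84.6, 67.9 and 71.04 CPM with 1E5, against 77.8, 53.5 and 72.2 CPM with DMSO, and FOXM1 117, 87.5 and 97.4 CPM with 1E5, against 67.3, 104 and 112 CPM with DMSO. These 5 pairs of groups overlapped too, and the 95% intervals of their log2 fold changes were -0.35 to 0.45 for CDK1, -0.15 to 0.43 for CCNB1, -0.29 to 0.76 for AURKA, -0.20 to 0.48 for INCENP and -0.53 to 0.72 for FOXM1.

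**Figure D3:**
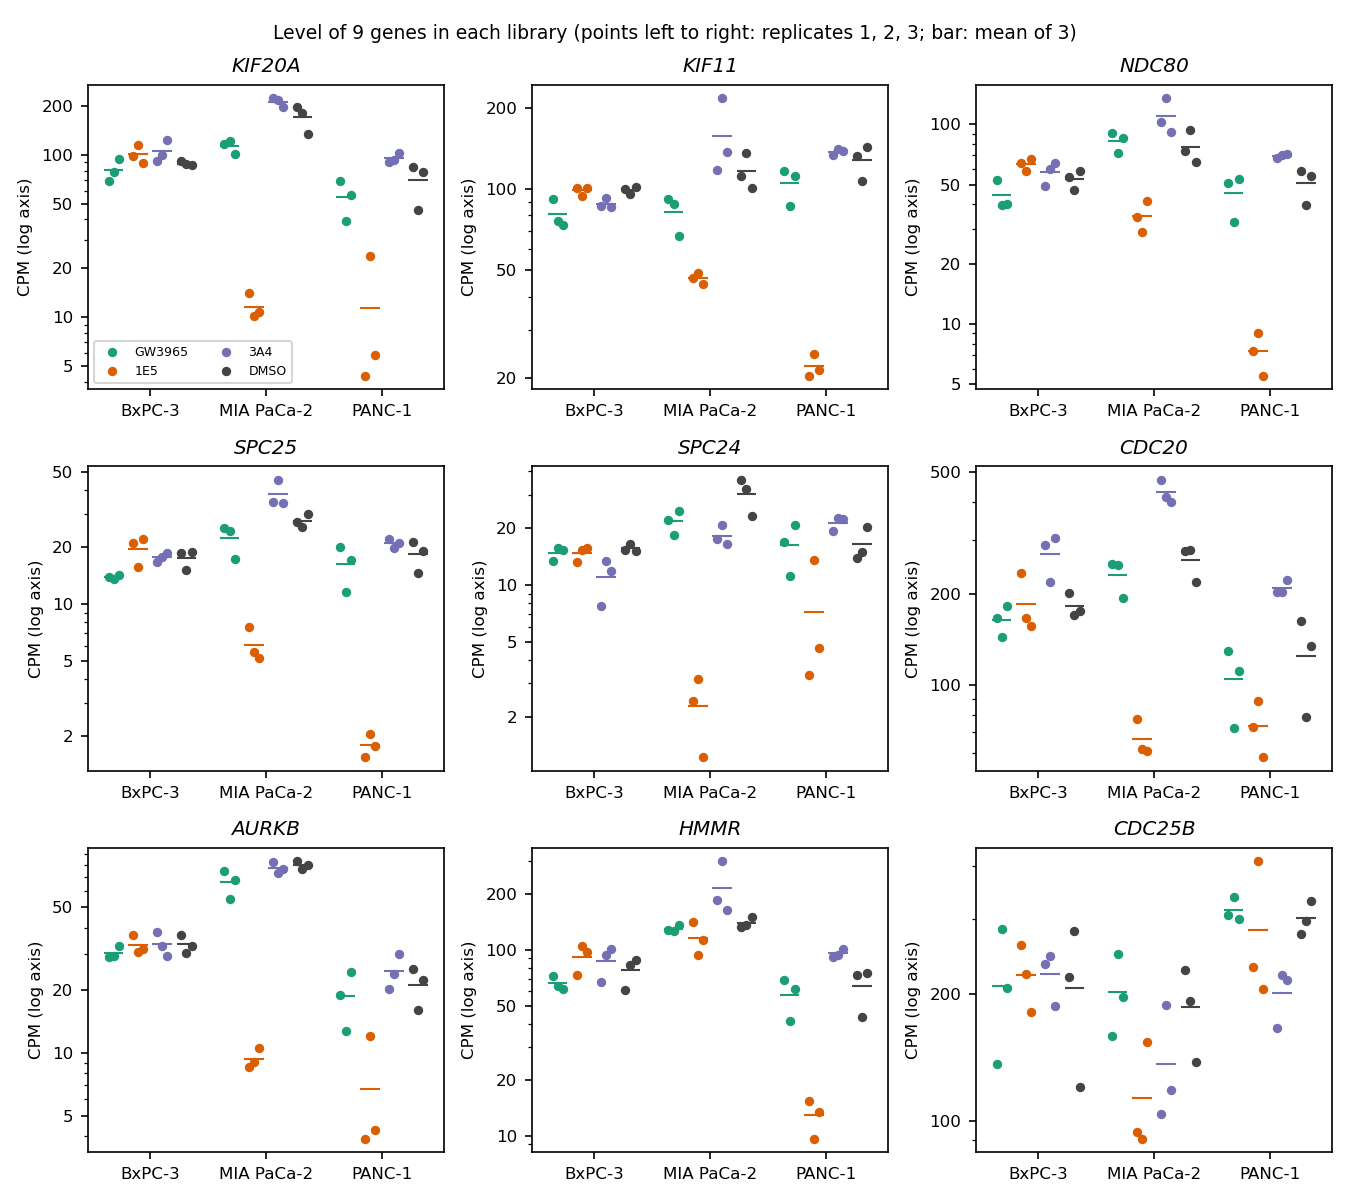
CPM per library, on a log axis, of KIF20A, KIF11, NDC80, SPC25, SPC24, CDC20, AURKB, HMMR and CDC25B by line and treatment (GW3965, 1E5, 3A4, then DMSO), each point a library and each bar the mean of 3. The 1E5 points lie below the DMSO points in both MIA PaCa-2 and PANC-1 for KIF20A, KIF11, NDC80, SPC25, SPC24 and AURKB, in MIA PaCa-2 for CDC20 and in PANC-1 for HMMR, while the groups of CDC25B overlap in both lines.

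MIA PaCa-2 and PANC-1 both responded to 1E5, but not to the same degree for each gene. The difference of the 1E5 response of PANC-1 from that of MIA PaCa-2, a test added after the data were seen, was called for 17 of the 50 genes. The response was more negative in PANC-1 for 13 of them, where 16.3% of all genes were called in that direction, and more negative in MIA PaCa-2 for 4, where 12.1% of all genes were. The 13 were HMMR, NDC80, KIF11, CENPF, KIF14, ASPM, SPC25, KIF20B, CENPE, MKI67, KIF18A, ECT2 and KIF4A. Of the 13, HMMR differed most, by -2.14 ± 0.33 on the log2 scale (adjusted p = 1.69e-05), from a response of -2.32 in PANC-1 and -0.27 in MIA PaCa-2. NDC80 differed by -1.75 ± 0.28 (adjusted p = 3.29e-05), CENPF by -1.52 ± 0.30 (adjusted p = 0.000273) and KIF11 by -1.31 ± 0.25 (adjusted p = 0.000184). The 4 genes with the more negative response in MIA PaCa-2 were SPC24, CDC20, AURKB and KIF22. In PANC-1, replicate 2 was the highest 1E5 library of all 4, and the lowest DMSO library of CDC20, AURKB and KIF22. Whether these 4 calls hold without that replicate is not given here. SPC24 differed by 2.45 ± 0.48 (adjusted p = 0.000298), AURKB by 1.31 ± 0.37 (adjusted p = 0.00774) and CDC20 by 1.09 ± 0.30 (adjusted p = 0.00684). Over the libraries left out in turn the count ran from 13 to 25, and it was 25 without PANC-1 1E5 replicate 2. KIF20A, at 1.15 ± 0.48 (95% interval 0.16 to 2.14), was not among the 17.

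**Figure D4:**
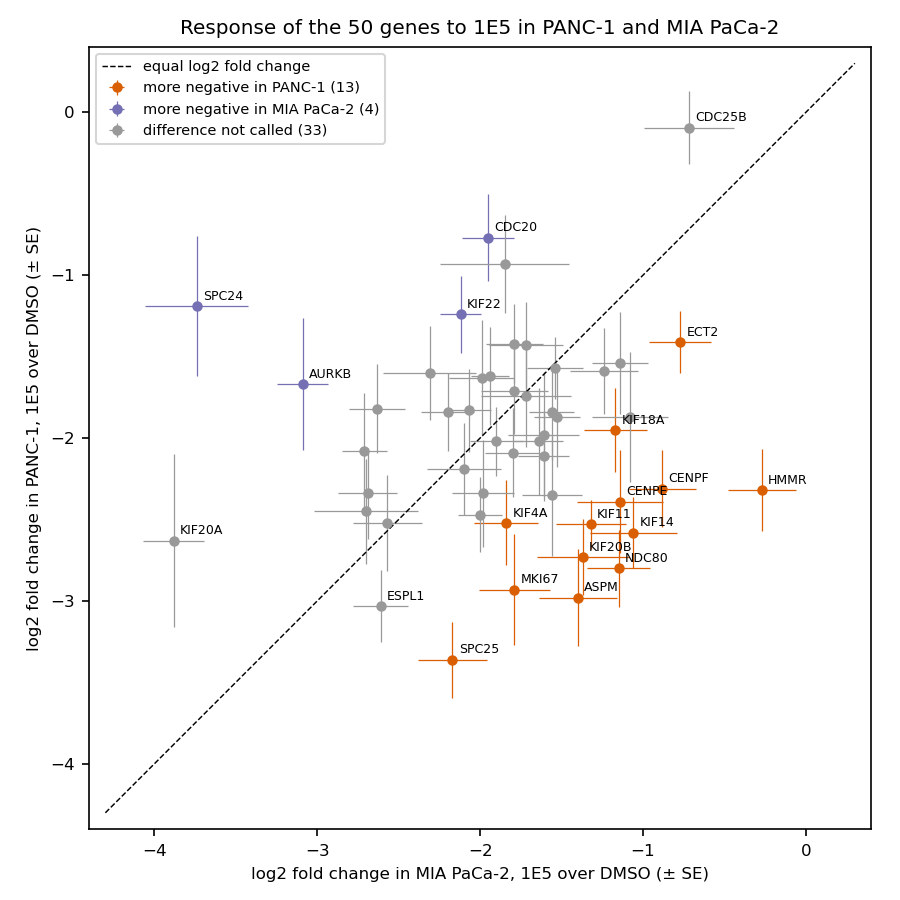
Log2 fold change of each of the 50 genes with 1E5 against DMSO in PANC-1 and in MIA PaCa-2, each point a gene with its SE as bars, with the 17 genes whose responses differed between the lines marked. HMMR, NDC80 and SPC25 lie on the side of the more negative response in PANC-1, and SPC24, AURKB and CDC20 on that of MIA PaCa-2.

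Within the NDC80 complex the subunits differed in opposite directions between the lines. NDC80 and SPC25 were called more negative in PANC-1 (SPC25 by -1.28 ± 0.28, adjusted p = 0.000983), SPC24 was called more negative in MIA PaCa-2, and NUF2, at 0.61 ± 0.36, was not called (adjusted p = 0.234). The SPC24 value is uncertain, as stated with its counts. Both Aurora kinases can be set side by side in the same way. AURKB, of the chromosomal passenger complex, was called more negative in MIA PaCa-2, while AURKA, of the spindle poles, differed by -0.21 ± 0.30 and was not called (adjusted p = 0.697). For SPC24 and AURKB, PANC-1 replicate 2 was the highest 1E5 library, as given above.

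With 3A4 and all libraries in the fit, the mitotic genes were in no line called lower. In MIA PaCa-2, 9 of the 50 were called higher and 0 lower, against a background of 7.3% of genes higher and 6.45% lower, and the median log2 fold change of the 50 was 0.41, with an all-gene median of 0.029. The 9 were AURKA, BUB1, CCNB1, CDC20, CENPF, ECT2, MKI67, TPX2 and UBE2C. TPX2 had 390.0, 529 and 365 CPM with 3A4 in MIA PaCa-2, against 282, 279 and 187 CPM with DMSO. ECT2 had 186, 312 and 194 CPM with 3A4 and 143, 152 and 116 CPM with DMSO, and CDC20 had 473, 416 and 401 CPM with 3A4 and 276, 277 and 218 CPM with DMSO. Replicate 2 was the highest 3A4 library for the summed level, at 9905 CPM, against 7920 and 7670 CPM in the others. The changes were 0.78 ± 0.21 (adjusted p = 0.0288), 0.75 ± 0.19 (adjusted p = 0.0231) and 0.74 ± 0.15 (adjusted p = 0.0111), and KIF14, at 0.75 ± 0.27 with 68.1, 127 and 82.2 CPM with 3A4 and 56.98, 67.2 and 39.2 CPM with DMSO, was not called (adjusted p = 0.0764). Only CDC20 was called with each library of the comparison left out in turn, and 1 gene was left without 3A4 replicate 2, without DMSO replicate 3, or without both of the shallowest libraries of the line. The count was 5 without DMSO replicate 1 or 2, and 15 without 3A4 replicate 1. The genes with the smallest differences there were AURKB (82.9, 73.4 and 75.95 CPM with 3A4 and 83.1, 76.3 and 80.1 CPM with DMSO), PRC1 (0.085; 179.8, 155 and 166 CPM with 3A4 and 149, 177 and 145 CPM with DMSO) and NUSAP1 (-0.086; 141, 128 and 119 CPM with 3A4 and 143, 132 and 137 CPM with DMSO).

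In PANC-1, edgeR called 0 of the 50 with 3A4 in either direction, where 3.84% of genes were lower and 3.53% higher. The median of the 50 was 0.33, 5 had an unadjusted p under 0.05, and DESeq2 called 2 and limma-voom 1. Without replicate 2 in every PANC-1 group, BIRC5 and CDC25B were called lower with 3A4, and the median was 0.19. CDC20 had 203, 202 and 222 CPM with 3A4 in PANC-1, against 162, 78.6 and 134 CPM with DMSO (0.74 ± 0.27, adjusted p = 0.113). AURKA had 159, 164 and 171 CPM with 3A4 and 90.95, 77.6 and 131 CPM with DMSO (0.72 ± 0.20, adjusted p = 0.0553), and CDC25B, with the largest downward difference, 166, 221 and 215 CPM with 3A4 and 277, 297 and 332 CPM with DMSO (-0.59 ± 0.22, adjusted p = 0.131). Every 3A4 library of CDC20 and AURKA was above, and every 3A4 library of CDC25B below, the DMSO libraries, and replicate 2 was the lowest DMSO library of CDC20 and AURKA. CENPF (307, 344 and 343 CPM with 3A4, 299.7, 298 and 398 CPM with DMSO), INCENP (49.2, 62.4 and 51.8 CPM with 3A4, 58.7, 39.7 and 55.7 CPM with DMSO) and FOXM1 (38.2, 80.4 and 72.4 CPM with 3A4, 73.6, 36.2 and 68.6 CPM with DMSO) differed least, and their groups overlapped. In BxPC-3, edgeR again called 0 of the 50, against backgrounds of 0.00554% lower and 0.0277% higher. There 8 had an unadjusted p under 0.05, and DESeq2 and limma-voom called 0. BIRC5 had 24.7, 22.1 and 23.97 CPM with 3A4 in BxPC-3 and 37.8, 28.9 and 40.7 CPM with DMSO (-0.60 ± 0.27), CDC20 289, 219 and 305 CPM with 3A4 and 200.2, 171 and 175 CPM with DMSO (0.57 ± 0.17), and SPC24 7.75, 13.4 and 11.8 CPM with 3A4 and 15.4, 16.5 and 15.1 CPM with DMSO (-0.51 ± 0.18). None of these 3 pairs of groups overlapped. Here, and for CDC20, AURKA and CDC25B in PANC-1, the genes were named for the largest differences of the 50, which favours groups without overlap. The share of all genes without overlap is not given here, so no effect is read from it. The smallest differences were those of AURKB (37.95, 32.5 and 29.2 CPM with 3A4, 37.01, 30.2 and 32.5 CPM with DMSO), TTK (49.8, 67.7 and 64.4 CPM with 3A4, 63.9, 55.7 and 61.6 CPM with DMSO) and KIF2C (139.7, 129 and 145 CPM with 3A4, 149.6, 140.4 and 126 CPM with DMSO), whose groups overlapped. The 3A4 response did not pass the test of a difference among lines for any of the 50 by edgeR, where 5.89% of all genes did, with 4 at an unadjusted p under 0.05. The genes closest to the threshold were ECT2 (adjusted p = 0.0882), CENPF (0.107), KIF11 (0.158) and ANLN (0.199). ECT2 had 141, 178 and 202 CPM with 3A4 in PANC-1, against 126, 121 and 164 CPM with DMSO, and 113, 152 and 161 CPM with 3A4 in BxPC-3, against 138, 143 and 154 CPM with DMSO. Its groups overlapped in these lines and were apart in MIA PaCa-2, with log2 fold changes of 0.75 in MIA PaCa-2, 0.34 in PANC-1 and -0.028 in BxPC-3. CENPF had 276, 454 and 314 CPM with 3A4 in MIA PaCa-2, against 236, 256 and 158 CPM with DMSO, and 151, 169 and 164 CPM with 3A4 in BxPC-3, against 142, 169.5 and 202 CPM with DMSO, and only the MIA PaCa-2 groups of the 3 lines did not overlap. KIF11 had 118, 217 and 138 CPM with 3A4 in MIA PaCa-2, against 112, 137 and 101 CPM with DMSO, and 134, 141 and 139 CPM with 3A4 in PANC-1, against 133, 107 and 144 CPM with DMSO, and these groups overlapped. In BxPC-3 KIF11 had 86.3, 93.1 and 86.1 CPM with 3A4, against 99.8, 96.4 and 102 CPM with DMSO, each 3A4 library below the DMSO libraries. ANLN had 266, 398 and 258 CPM with 3A4 in MIA PaCa-2, against 225, 202 and 145 CPM with DMSO, and 300.3, 343 and 389.7 CPM with 3A4 in PANC-1, against 255, 177 and 294 CPM with DMSO. All 3A4 libraries of ANLN were above the DMSO libraries in both, whereas in BxPC-3, with 232, 260.1 and 258 CPM with 3A4 and 251, 233 and 305 CPM with DMSO, the groups overlapped. Without MIA PaCa-2 3A4 replicate 1, 3 genes passed the test of a difference among lines.

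1E5 and 3A4, given at the same dose and time, were set against each other directly in each line. In MIA PaCa-2, 49 of the 50 genes were called higher with 3A4 than with 1E5 and 0 lower (median 2.16), where 17.2% of genes were higher and 15.1% lower. In PANC-1, 49 were called higher and 0 lower (median 2.28, and 49 with a median of 2.72 without replicate 2), where 18.5% were higher and 18.8% lower. Replicate 2 was the PANC-1 1E5 library with the highest summed level, and leaving it out was chosen after the data were seen. KIF20A had 223, 217 and 199 CPM with 3A4 in MIA PaCa-2, against 14.01, 10.2 and 10.7 CPM with 1E5. SPC25 had 22.3, 19.8 and 20.95 CPM with 3A4 in PANC-1, against 1.55, 2.04 and 1.78 CPM with 1E5. The groups were far apart, with differences of 4.19 ± 0.19 (adjusted p = 6.86e-08) and 3.55 ± 0.24 (adjusted p = 2.45e-06). CDC25B was the gene not called, at 0.28 ± 0.28 in MIA PaCa-2 (95% interval -0.32 to 0.87) and -0.49 ± 0.22 in PANC-1 (95% interval -0.98 to -0.0062). HMMR, which 1E5 did not change past the threshold in MIA PaCa-2, was called higher with 3A4 than with 1E5 there (0.90 ± 0.21, adjusted p = 0.00541). In BxPC-3, edgeR called 0 of the 50 between the compounds, where 0.0554% of genes were lower and 0.0887% higher. There 11 of the 50 had an unadjusted p under 0.05, DESeq2 called 3 and limma-voom 0. The largest BxPC-3 difference was that of NUSAP1, whose counts are uncertain as stated above, with 62.1, 80.2 and 94.1 CPM with 3A4 and 109.5, 151 and 109.7 CPM with 1E5 (-0.65 ± 0.16, adjusted p = 0.141, 95% interval -0.99 to -0.30). The 12 comparisons within lines share libraries, so that the 3A4 against 1E5 values and the values against DMSO are not independent of each other.

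With GW3965, edgeR called 0 of the 50 genes in any line. The backgrounds were 0.848% lower and 0.477% higher in BxPC-3, 0.105% lower and 0.418% higher in MIA PaCa-2, and 0.00539% lower and 0.0431% higher in PANC-1. Uncalled values were mostly below 0, for 48 of the 50 in PANC-1 (median -0.19), 45 in MIA PaCa-2 (median -0.30) and 43 in BxPC-3 (median -0.15), where the all-gene medians were -0.00043, -0.0014 and -0.0037. An unadjusted p under 0.05 was found for 1 gene in PANC-1, 13 in MIA PaCa-2 and 2 in BxPC-3. DESeq2 called 2 genes in MIA PaCa-2 and 0 in the other lines, and limma-voom called 0 in each. In MIA PaCa-2 the largest difference was that of KIF20A, with 116, 123 and 101 CPM with GW3965, against 197, 181 and 134 CPM with DMSO. All 3 GW3965 libraries were below the DMSO libraries, and the difference was -0.59 ± 0.17 (adjusted p = 0.232). SPC24 followed with 22.2, 18.3 and 24.6 CPM with GW3965 and 36.1, 32.3 and 23.2 CPM with DMSO (-0.51 ± 0.29), and PLK1 with 91.7, 86.99 and 58.7 CPM with GW3965 and 109, 119 and 110.2 CPM with DMSO (-0.50 ± 0.16). The smallest differences there were those of CDK1 (72.0, 58.7 and 82.1 CPM with GW3965, 53.4, 71.2 and 78.3 CPM with DMSO), CDC25C (45.5, 46.3 and 49.9 CPM with GW3965, 47.8, 49.3 and 50.8 CPM with DMSO) and MAD2L1 (58.99, 41.7 and 66.8 CPM with GW3965, 49.4, 62.3 and 61.8 CPM with DMSO).

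In PANC-1 the largest GW3965 difference was that of BIRC5, with 37.1, 19.4 and 29.9 CPM with GW3965, against 68.1, 32.1 and 61.2 CPM with DMSO (-0.90 ± 0.30, adjusted p = 0.849). INCENP had 38.6, 30.3 and 39.6 CPM with GW3965 and 58.7, 39.7 and 55.7 CPM with DMSO (-0.51 ± 0.24), and KIF18B 19.1, 11.2 and 16.7 CPM with GW3965 and 22.2, 15.4 and 22.8 CPM with DMSO (-0.36 ± 0.27). Replicate 2 was the lowest library of both groups for the summed level, at 3499 CPM with GW3965 and 4032 CPM with DMSO, and without it edgeR again called 0 of the 50. SPC24 (16.8, 11.2 and 20.7 CPM with GW3965, 13.9, 15.01 and 20.3 CPM with DMSO), PLK4 (26.2, 17.4 and 30.8 CPM with GW3965, 23.1, 21.8 and 30.6 CPM with DMSO) and CENPA (21.5, 11.1 and 20.1 CPM with GW3965, 21.7, 13.2 and 19.4 CPM with DMSO) differed least. In BxPC-3 the summed level averaged 4991 ± 295 CPM with GW3965 and 5529 ± 253 CPM with DMSO (SD, n = 3 each). CENPA had 12.3, 11.9 and 11.2 CPM with GW3965 in BxPC-3, against 13.5, 22.2 and 11.5 CPM with DMSO (-0.41 ± 0.21). BIRC5 had 34.7, 17.3 and 32.97 CPM with GW3965 and 37.8, 28.9 and 40.7 CPM with DMSO (-0.34 ± 0.27), and SPC25 13.9, 13.6 and 14.3 CPM with GW3965 and 18.6, 15.1 and 18.95 CPM with DMSO (-0.34 ± 0.15). The SPC25 libraries with GW3965 were all below those with DMSO, and the other groups overlapped. KIF23 (144, 115 and 118 CPM with GW3965, 134, 119.8 and 125 CPM with DMSO), PRC1 (163, 179.6 and 183 CPM with GW3965, 183, 164 and 176 CPM with DMSO) and NUF2 (30.6, 23.01 and 27.6 CPM with GW3965, 24.9, 26.5 and 30.5 CPM with DMSO) differed least. No gene of the 50 passed the test of a difference among lines for GW3965 by edgeR, where 0.104% of all genes did, and 0 of the 50 had an unadjusted p under 0.05. The smallest p of this test were those of INCENP, CENPA, PLK1 and BIRC5, each with an adjusted p of 1.0. INCENP had 48.9, 42.8 and 33.8 CPM with GW3965 in MIA PaCa-2, against 62.1, 59.5 and 43.8 CPM with DMSO, and 66.2, 61.8 and 72.0 CPM with GW3965 in BxPC-3, against 77.8, 53.5 and 72.2 CPM with DMSO. CENPA had 28.04, 11.7 and 41.8 CPM with GW3965 in MIA PaCa-2, against 15.1, 17.9 and 32.5 CPM with DMSO, and BIRC5 had 44.2, 38.8 and 46.8 CPM with GW3965 there, against 75.01, 35.9 and 49.03 CPM with DMSO. PLK1 had 57.4, 31.6 and 51.1 CPM with GW3965 in PANC-1, against 66.9, 40.4 and 56.8 CPM with DMSO, and 76.1, 67.0 and 72.3 CPM with GW3965 in BxPC-3, against 84.9, 67.5 and 69.4 CPM with DMSO. All of these pairs of groups overlapped.

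The order of levels of the 50 genes in the DMSO libraries, per kilobase of exon (CPM per kb, TMM over all 36 libraries, GENCODE 29 lengths), was led by few genes. In BxPC-3 the highest were UBE2C at 106.6 ± 11.4, CDC20 at 95.6 ± 8.01 and TOP2A at 84.0 ± 7.70 CPM per kb (SD, n = 3) and neighbouring means lay within the sum of their SDs. In MIA PaCa-2 CCNB1 at 123 ± 21.95 was followed by CDC20 at 119.5 ± 18.95 and UBE2C at 87.5 ± 13.7 CPM per kb, and neighbouring means again lay within the sum of their SDs. In PANC-1 TPX2 led at 110.9 ± 30.4, followed by TOP2A at 77.4 ± 18.7 and CDC25B at 67.3 ± 6.15 CPM per kb, means that likewise lay within the sum of their SDs. The lowest were CDC25C at 4.68 ± 0.490 in BxPC-3, PLK4 at 5.10 ± 0.929 in MIA PaCa-2 and KIF18B at 4.15 ± 0.832 CPM per kb in PANC-1.

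Between lines with DMSO, differences of the 50 genes ran in both directions. In BxPC-3 against PANC-1, 19 genes were higher and 2 lower (median 0.30), where 27.1% of all genes were higher and 25.5% lower. In MIA PaCa-2 against PANC-1, 22 were higher and 3 lower (median 0.31), where 21.7% of genes were higher and 29.5% lower. In BxPC-3 against MIA PaCa-2, 8 were higher and 13 lower (median -0.18), where 32.7% of genes were higher and 24.6% lower. Without PANC-1 DMSO replicate 2 the BxPC-3 against PANC-1 count came to 12, and without BxPC-3 DMSO replicate 3 the BxPC-3 against MIA PaCa-2 count came to 13. The median of BxPC-3 against MIA PaCa-2 changed sign, to 0.042, without MIA PaCa-2 DMSO replicate 2. CDC20 averaged 257 ± 33.9 CPM in MIA PaCa-2 and 125 ± 42.5 CPM in PANC-1 within each line's own scaling, and its difference between these lines was 1.02 ± 0.21 (adjusted p = 0.0002) in the fit of all libraries. CDC25B differed in the other direction, by -0.72 ± 0.30 (adjusted p = 0.0451), and PLK1 by 1.02 ± 0.20 (adjusted p = 9.71e-05).

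Other genes of mitosis that are not among the 50 moved in part with them. Of 109 such genes, 74 were called lower and 5 higher with 1E5 in MIA PaCa-2 (median -0.93), where 23.4% of all genes were lower and 23.6% higher. In PANC-1, 72 were called lower and 6 higher (median -1.02), where 19.3% of all genes were lower and 19.7% higher, and the list counts that follow are to be read beside these shares. The condensin list, whose proteins compact chromosomes, had 7 of 8 genes called lower in each line, and the kinetochore list 20 of 27 in MIA PaCa-2 and 23 of 27 in PANC-1. The list of the anaphase-promoting complex, whose subunits are mostly present throughout the cell cycle, had 8 lower and 3 higher of 17 in MIA PaCa-2 and 5 lower and 4 higher in PANC-1, the PANC-1 counts being near the shares of all genes. MYBL2, the B-MYB factor of the MuvB complex, had 35.1, 45.8 and 31.5 CPM with 1E5 in MIA PaCa-2, against 298, 323 and 233 CPM with DMSO, and 15.2, 19.2 and 11.3 CPM with 1E5 in PANC-1, against 139.7, 83.97 and 121 CPM with DMSO. Its groups did not overlap, and its changes were -2.93 ± 0.20 (adjusted p = 7.12e-07) and -2.92 ± 0.26 (adjusted p = 1.13e-05), beside -1.72 and -1.74 for FOXM1. ANAPC15 (-2.99), a checkpoint-linked subunit of the anaphase-promoting complex, and CENPW (-2.84), an inner kinetochore protein, were also among the largest falls in MIA PaCa-2, where CDC27 (0.93) and ANAPC16 (0.88), further subunits of the complex, and LIN54 (0.83), the DNA-binding subunit of MuvB, were called higher. In PANC-1 the largest falls were those of GTSE1 (-3.28), a microtubule-binding protein, CENPI (-3.25) and the condensin subunit NCAPH (-3.09), and HAUS4 (0.66), CDC26 (0.60) and E2F4 (0.59) were called higher. Of 29 genes of DNA replication, listed as a comparison from another phase of the cell cycle, 27 were called lower with 1E5 in MIA PaCa-2 (median -2.13) and 25 in PANC-1 (median -1.61). In BxPC-3, where no gene of the table was called with 1E5 by edgeR, the medians were 0.054 for the 109 genes and -0.048 for the 29.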

How the data were processed

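The authors deposited whole-number counts per gene for 36 libraries in 1 table. Per the submitters' processing notes, Trim Galore 0.4.4, HISAT2 2.0.2, SAMtools 1.3, StringTie 1.3.1c and the build GRCh38 were used; the sources used here give neither their roles nor the annotation and strand setting. Per the labels' protocols, total RNA was purified on columns and a stranded total RNA kit was used. Reads at overlapping genes or near-identical copies may have been split between them, and the larger exon overlaps are given beside the gene. Of 58658 lines, 407 transcript lines and 8 loci without a gene (at most 0.00396% of a library) were left out. Symbols, coordinates and exon lengths came from GENCODE 29.

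Counts were analysed as deposited with edgeR 4.0.16 in R 4.3.3. Each line was fitted on its 12 libraries with 1 mean per group, TMM scaling, filterByExpr at a minimum count of 10 and a minimum total of 15, and a two-sided quasi-likelihood test. The Benjamini-Hochberg adjustment ran over every gene tested, and a gene was called at an adjusted p under 0.05. Differences among lines (2 degrees of freedom) and between DMSO groups were tested in 1 fit of all 36 libraries. The test of PANC-1 against MIA PaCa-2 was added after seeing the data. The fits were tested on simulated counts with known changes. Alternatives were DESeq2 1.42.0, limma-voom (limma 3.58.1), RLE scaling, no filter on low counts, 1 fit of all libraries, only the compared groups, mitochondrially encoded genes left out, thinned counts, the replicate block and each library left out. Leaving out PANC-1 replicate 2 from all groups, or the shallowest MIA PaCa-2 libraries, was chosen after seeing the data.

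The 50 genes, the gene lists and the rule for named genes were chosen with earlier results of these data known. Values in every library are given for 15 anchor genes (1E5 and DMSO groups; elsewhere where another rule names them), for the 3 largest and 3 smallest fold changes of the 50 in each comparison with DMSO, and for the 4 genes whose line-to-line difference had the lowest p for a ligand. Up to 3 called genes per direction are named from the other mitosis lists. No 2 replicates were within sampling noise. Same-numbered libraries correlated between groups at -0.062 to 0.229 in their deviations from group means, with 17 of 54 pairs over 0.1. The medians within a line were 0.058 to 0.09 for the same number and -0.062 to -0.03 for different numbers, a hint of shared batches. The labels do not say that the numbers pair the libraries. They were therefore not taken to do so, and the replicate block was run as an alternative.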

Additional observations from a re-analysis of the deposited data

Results flagged for a closer look

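The response of the mitotic genes to 1E5 differed among the 3 lines for 49 of the 50 genes by the edgeR test of the ligand by line interaction. The smallest adjusted p-values were those of SPC25 (2.23e-09), ESPL1 (2.29e-09), BUB1B (1.49e-08) and NDC80 (2.19e-08), genes of the kinetochore, of anaphase and of the checkpoint that were lower with 1E5 in all 3 libraries of MIA PaCa-2 and of PANC-1. Between PANC-1 and MIA PaCa-2 alone, 17 of the 50 genes differed in their response by the edgeR contrast added after the data were seen. HMMR (adjusted p = 1.69e-05), NDC80 (3.29e-05), KIF11 (0.000184) and CENPF (0.000273) had the smallest adjusted p-values of that contrast, and all 4 had the more negative response in PANC-1. These flags come from the tests of the differences themselves, and no outlier test was applied to single libraries, because each group holds 3.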

How the results depend on the processing

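With 1E5, the count of the 50 genes called lower was 46 to 50 in PANC-1 and 48 to 49 in MIA PaCa-2 over every alternative run, and 0 in BxPC-3. With GW3965, DESeq2 called 2 genes in MIA PaCa-2, against 0 by edgeR. The 9 genes called higher with 3A4 in MIA PaCa-2 became 14 with DESeq2, 17 in 1 fit of all libraries, 4 when the fit held just the compared groups, 1 after the shallowest libraries were left out, and 1 to 15 over single libraries left out. For 3A4 in PANC-1, where edgeR called 0, the fit without replicate 2 called 2 lower (BIRC5 and CDC25B), DESeq2, the fit of all libraries, only the compared groups and the replicate block each called 2, limma-voom and thinned counts 1, and left-out libraries 0 to 2. For 3A4 against 1E5 in BxPC-3, DESeq2 called 3 genes. The difference among lines for 3A4 ran from 0 to 3 called genes over libraries left out. With DMSO, the called genes ran from 12 to 22 in BxPC-3 against PANC-1, from 17 to 24 in MIA PaCa-2 against PANC-1 and from 13 to 16 in BxPC-3 against MIA PaCa-2 over libraries left out, where 21, 25 and 21 were called with all libraries. The count for PANC-1 against MIA PaCa-2 under 1E5 ran from 13 to 25. The cause of these changes was not tested.

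The replicate numbers were not shown to pair the libraries, although 33 of 36 libraries correlated best with their own number, a hint from the data and not from the design. With the replicate block, 47 genes were called with 1E5 in PANC-1 and 48 in MIA PaCa-2, 13 with 3A4 in MIA PaCa-2, 2 with 3A4 in PANC-1, 1 with 3A4 in BxPC-3 and 1 for 3A4 against 1E5 in BxPC-3. No called gene reversed its direction under any alternative, and the median of BxPC-3 against MIA PaCa-2 with DMSO, -0.18 with all libraries, ran up to 0.042. Other scalings moved the all-gene median of a comparison by 0.0909 at most on the log2 scale. Single left-out libraries ended the 1E5 calls of CDC20, CENPA and SPC24 in PANC-1 and of CDC25B in MIA PaCa-2. The shallow DMSO and GW3965 libraries of MIA PaCa-2 limit precision there, and intervals cover counting error and the spread of these libraries only.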
